A study of Mus musculus with 24 samples.

Results

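Gal encodes the precursor of the neuropeptide galanin, and Tac1 encodes the precursor of substance P and neurokinin A. The members were the rows that carry these gene names, Gal (ENSMUSG00000024907) and Tac1 (ENSMUSG00000061762), 2 of the 36806 genes in the deposited table. They were chosen by values of these libraries, Gal by its low level in heterozygotes at 48 h and Tac1 by the gap between its levels at 8 h and 48 h. Comparisons that use the 48 h libraries for Gal, or the 8 h or 48 h libraries for Tac1, are therefore given as values with no test. The other comparisons were tested.

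Polyadenylated RNA of pancreas was sequenced from C57BL mice that were Nr5a2 +/+ (called WT) or Nr5a2 +/- (called HET). The protein is a transcription factor of the nuclear receptor class. It drives genes for digestive enzymes in acinar cells, which make and secrete those enzymes and form the bulk of the organ. Each genotype had a saline group and 3 groups given 7 hourly injections of caerulein at 50 ug/kg and killed 8, 24 or 48 h after the first one. Caerulein mimics cholecystokinin, the gut hormone that makes acinar cells secrete, and given in excess it brings on pancreatitis. The 8 groups held 3 animals each, 24 libraries in all, and both genotypes received the same treatment. The labels used here name neither age nor the design of the Nr5a2 allele. Nr5a2 itself was at 9.26 to 12.6 FPKM in WT saline and at 8.01 to 9.09 FPKM in HET saline. Its genotype difference did not pass the threshold in any of the 4 conditions (limma adjusted p = 0.197 at 48 h to 1 at 8 h). In bulk RNA of an organ, fewer cells of a type and less RNA per cell cannot be told apart.

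Galanin is released by nerves of the gut and pancreas, restrains insulin release and acts through the receptors Galr1, Galr2 and Galr3. Substance P is released by sensory nerve endings and acts mainly on Tacr1, the neurokinin-1 receptor, where it causes plasma leak and the entry of white blood cells, a process called neurogenic inflammation. In caerulein pancreatitis substance P is known as a pro-inflammatory peptide, and mouse acinar cells have been described as a source of it. Both precursors are cut by prohormone convertases inside secretory granules, and the released peptides are broken down by peptidases at the cell surface.

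The promoters are shown because the animals differed in a transcription factor. The first is the stretch of Gal from 250 bases before the start of transcription to the start (RefSeq, GRCm38.p6, chr19:3414545-3414794, minus strand), with a match to CAAGGNCA on the opposite strand in capitals. CAAGGNCA is the core of the sequence that NR5A receptors bind. The second is a stretch of 30 bases of Tac1 (GRCm38.p6, chr6:7554996-7555025, plus strand), with the E-box CACGTG and TGACG on the opposite strand in capitals. TGACG is the core of the cyclic AMP response element.
Gal: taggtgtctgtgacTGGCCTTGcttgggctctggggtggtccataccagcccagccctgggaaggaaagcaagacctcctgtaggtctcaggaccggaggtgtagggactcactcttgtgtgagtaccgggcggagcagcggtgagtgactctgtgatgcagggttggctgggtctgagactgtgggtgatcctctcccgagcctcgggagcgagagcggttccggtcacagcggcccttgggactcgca
Tac1: gtgtCACGTGgctctacaggctCGTCAcgc

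The match in Gal lay 236 to 229 bases before the start, and 5.53% of the 32851 RefSeq promoters of this length hold one on either strand. Tac1 held no CAAGGNCA in its 250 bases. In Tac1 the E-box lay 61 to 56 bases before the RefSeq start, and TGACG lay 43 to 39 and also 197 to 193 bases before it. The Tac1 stretch before this start lies in the first exon of another annotated transcript. Of all promoters, 6.02% hold CACGTG and 17.8% hold TGACG, so the latter is common by its length. Neither promoter held the AP-1 sequence TGANTCA (in 6.75% of promoters) or the full TGACGTCA (in 1.55%). These are matches of letters, and no binding was measured.

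Levels are given in the FPKM that the authors deposited, a measure per length of transcript and per library, so they can be compared between genes. Low values of a gene fell on whole multiples of a step that differed between libraries. Of 34606 values below 6 steps in 4957 genes that were above 0 in 4 to 16 libraries, 86.1% were whole to within 0.1 step. The steps give the fragments behind 1 FPKM in each library relative to the others, called depth here. This depth also depends on how the libraries were scaled and is not their total of fragments. A fragment was worth the most in HET saline replicate 1 and 15.75 times less in HET 48 h replicate 3. Relative to the former, the saline libraries had depths of 1 to 2.141 and those of 24 h had 2.036 to 4.351. The 8 h libraries had 3.751 to 5.688 and those of 48 h had 4.116 to 15.75. Library preparation followed an earlier guide with 10 cycles of PCR for saline and 24 h, and the v2 guide with 8 cycles for 8 h and 48 h. The effect of 8 h of caerulein and the change of guide cannot be told apart. WT saline replicate 3 stands in neither list of libraries. Without it Gal of WT fell by 2.90 from saline to 24 h (limma adjusted p = 0.00690), and Tac1 kept its call in that comparison (adjusted p = 0.00962).

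Gal was abundant in the resting pancreas and lower after caerulein in both genotypes. In WT saline its FPKM was 61.1, 214 and 454, and in HET saline 293, 137 and 40.4. The saline animals of each genotype were far apart, with means of 243 ± 198 (SD, n = 3) in WT and 157 ± 127 in HET, and the genotypes overlapped. At 8 h Gal was at 25.6, 77.6 and 47.1 FPKM in WT and at 13.1, 13 and 62.5 in HET. At 8 h the genotypes again overlapped, with HET replicate 3 above 2 of the 3 WT animals.

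At 24 h Gal was at 21, 11.9 and 12.1 FPKM in WT and at 3.01, 2.32 and 1.26 in HET. All HET animals lay below all WT animals, with means of 15.0 ± 5.20 (SD, n = 3) in WT and 2.20 ± 0.88 in HET, 6.83-fold apart. At 48 h it was at 51.9, 32.5 and 54.1 FPKM in WT, back within the range of WT at 8 h. In HET at 48 h it was at 0.93, 1.18 and 0.151, with a mean 61.3-fold below that of WT. By the steps above, the HET values at 48 h rest on about 15.9, 23.9 and 3.98 fragments and the WT values on 357 to 415, and the HET 48 h libraries were the deepest of all by this measure. In order of group means Gal ran from WT saline through HET saline, WT 8 h, WT 48 h, HET 8 h, WT 24 h and HET 24 h to HET 48 h. Neighbours in this order overlapped except WT 24 h with HET 24 h and HET 24 h with HET 48 h. Here and below, ranges that do not overlap are a description. The share of all genes with such ranges was not counted.

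**Figure D1:**
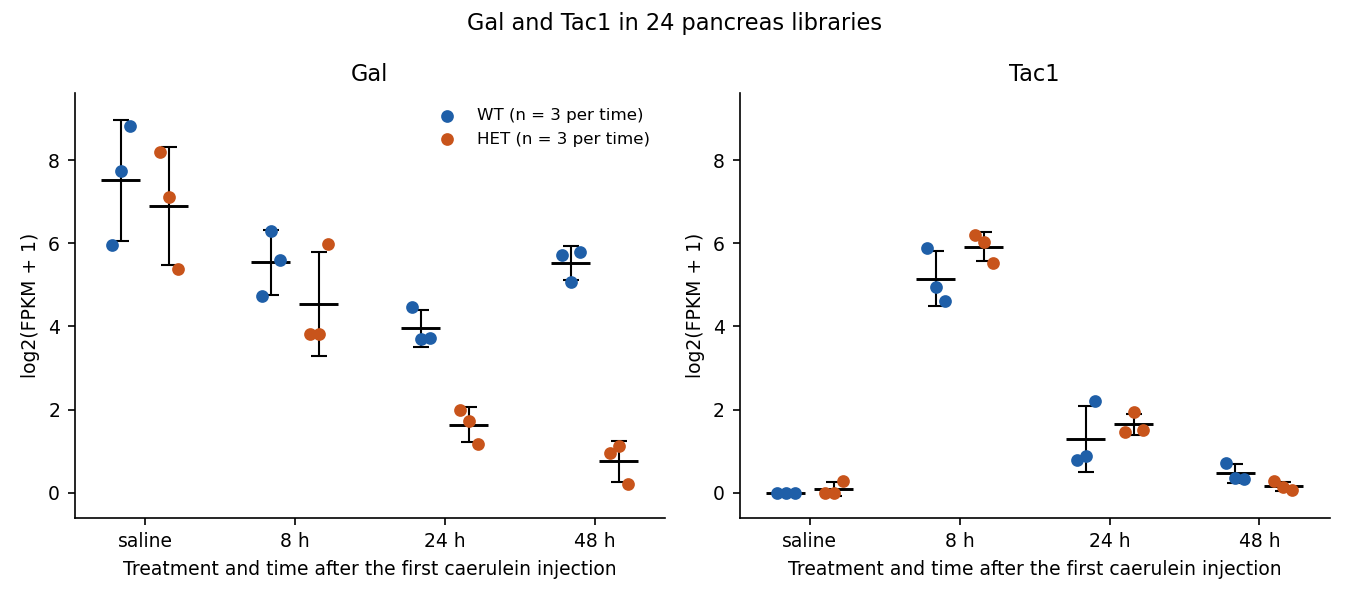
Levels of Gal (left) and Tac1 (right) as log2(FPKM + 1) in each of 24 libraries. Points are animals, horizontal lines group means and bars 1 SD (n = 3 per group). Gal of HET lies below that of WT at 24 h and 48 h, and Tac1 is high at 8 h alone.

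Changes are given as the log2 difference between 2 groups in mean log2(FPKM + 1), with its standard error, from limma with Benjamini-Hochberg adjustment over all genes tested. This scale understates changes of genes at a few FPKM. The standard error rests on 1 spread per gene, shared by all 8 groups. From saline to 24 h, within the earlier guide, Gal fell by 3.56 ± 0.73 in WT (adjusted p = 0.000998) and by 5.26 ± 0.73 in HET (adjusted p = 1.94e-05). These comparisons called 39.2% of all genes in WT and 43.8% in HET. With libraries scaled to the total without 60 acinar secretory and Reg genes, the median of all genes moved from 0.0494 to 0.70 in WT and from 0.0626 to 0.817 in HET. Gal then fell by 2.64 in WT (adjusted p = 0.00571) and by 4.35 in HET (adjusted p = 7.31e-05). From saline to 8 h it fell by 1.97 ± 0.73 in WT (adjusted p = 0.0317) and by 2.36 ± 0.73 in HET (adjusted p = 0.0111), where 51.0% and 55.2% of genes were called. Both 8 h calls were lost when only the compared groups were fitted (adjusted p = 0.108 in WT and 0.0803 in HET). Leaving out single animals also ended them. The highest adjusted p was 0.170, without WT saline replicate 3, and in HET 0.0718, without HET saline replicate 1.

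The genotype difference of Gal, HET minus WT, was -0.62 ± 0.73 in saline (adjusted p = 0.689), -1.0 ± 0.73 at 8 h (adjusted p = 1) and -2.32 ± 0.73 at 24 h (adjusted p = 0.0687). None passed the threshold of 0.05 over all genes, which 2.36%, 0.218% and 6.50% of genes passed. At 24 h the difference was past it when the 24 h groups were fitted alone (adjusted p = 0.0218). The interaction term for the change from saline to 24 h did not pass (-1.70 ± 1.04, adjusted p = 0.423, 2.31% of genes called). The 8 h interaction was -0.38 ± 1.04 (adjusted p = 0.943, 0.0233% called). At 48 h, the value for which Gal was chosen, the genotype difference was -4.77 ± 0.73. Between 8 h and 48 h the log2 difference was -0.01 in WT and -3.78 in HET. The shared spread hides that the groups were unequal, with a log2 SD of Gal from 0.399 in WT 48 h to 1.45 in WT saline. From the 2 compared groups alone the standard error of the genotype difference was 1.17 in saline and 0.854 at 8 h. At 24 h it was 0.351 and at 48 h 0.364.

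Acinar genes moved in the same comparisons. Of 20 acinar markers, 18 were measured in both groups at 24 h, and 5 were lower and 0 higher in HET, with a list median of -1.73 against 0.000854 over all genes, of which 6.50% were called. At 48 h 17 of 18 were lower, with a median of -3.67 against 0.0295 over all genes, in a comparison that called 12.2% of genes and 6.37% as lower. The 5 calls at 24 h became 14, and the 17 calls at 48 h became 0, when only the compared groups were fitted. That fit called 256 of all genes at 24 h instead of 836, and 19 at 48 h instead of 1572. At 24 h Bhlha15, a transcription factor of secretory cells, was at 0.674 FPKM on average in HET and 16.8 in WT, a difference of -3.39 ± 0.46 (adjusted p = 0.000618). Cckar, the cholecystokinin receptor that caerulein acts on, differed by -2.36 ± 0.40 (adjusted p = 0.00177). At 48 h Bhlha15 differed by -3.51 ± 0.46 (adjusted p = 0.000171) and Rbpjl, a subunit of the acinar PTF1 complex, by -2.81 ± 0.39 (adjusted p = 0.000225). The summed level of the 13 acinar markers measured in every group was 34220 to 82820 FPKM in WT at 48 h and 585 to 13480 in HET. At 24 h Gal lay within the range of the single acinar markers, whose lowest was Serpini2 at -3.44, and at 48 h just below their lowest, Ctrl at -4.68. Both genes are named for that place, after their values were seen. In HET 48 h replicate 3, the library with the lowest acinar sum, Gal was also lowest. The saline groups did not go this way. Gal differed there 7.43-fold between WT animals, with acinar sums of 301800 to 426700 FPKM. Between HET saline animals it differed 7.25-fold, with sums of 262800 to 512400 FPKM. From saline to 24 h 12 of 13 measured acinar markers fell in WT, with a median of -3.07, and 14 of 14 in HET, with a median of -4.32. Of all genes 18.7% fell in WT and 19.8% in HET, with medians of 0.0494 and 0.0626. The part of acinar RNA in the Gal result was not tested.

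In HET against WT 0 of 11 tested islet markers passed in saline, where 10 had an unadjusted p under 0.05 and the median was -1.30. At 24 h 0 passed and 2 had such a p, with a median of 0.04. At 48 h 1 was lower, Ttr (-1.45 ± 0.40, adjusted p = 0.0220), the thyroid hormone carrier transthyretin. These comparisons called 2.36% of all genes in saline, 6.50% at 24 h and 12.2% at 48 h, where 6.37% were lower. Ins2, an insulin gene, was at 651 FPKM on average in HET and 574 in WT at 24 h. From saline to 24 h 10 of 11 islet markers fell in WT and 3 of 11 in HET, where 18.7% and 19.8% of all genes fell. Sst, the somatostatin gene, fell by 2.43 ± 0.49 in WT (adjusted p = 0.000703) and by 1.33 ± 0.49 in HET (adjusted p = 0.0337). The 24 h interaction called 0 of the 11 islet markers, with 6 at an unadjusted p under 0.05, and 2.31% of all genes. The summed islet markers were at 2765 to 5218 FPKM in WT saline and at 996 to 1482 in HET saline, where Gal overlapped. When libraries were scaled to the total without acinar secretory and Reg genes, the islet count in WT at 24 h was 3 instead of 10. Of all genes 478 were then called lower in that comparison, instead of 2406. The part of islet RNA in the Gal result was not tested.

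**Figure D2:**
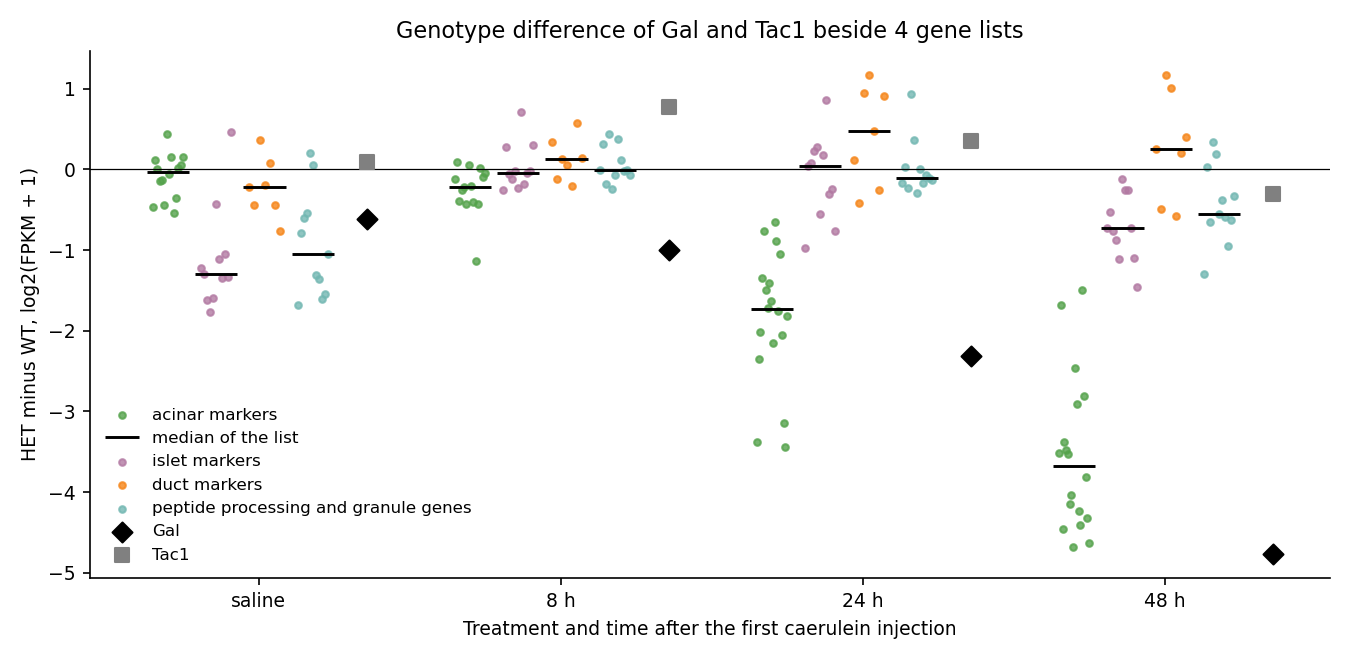
Genotype difference, HET minus WT in log2(FPKM + 1), in each of 4 conditions for Gal (diamonds), Tac1 (squares) and the tested genes of 4 lists, of acinar, islet, duct and peptide processing genes (small points, with the list median as a line). At 48 h Gal at -4.77 lies at the lower edge of the acinar markers, while Tac1 is at -0.31.

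Tac1 was at or near 0 in the resting pancreas and was plainly present at 8 h. In WT saline it was listed at 0 in all 3 libraries, and in HET saline at 0, 0 and 0.211, the last worth about 1 fragment. At 8 h it was at 58.1, 29.9 and 23.3 FPKM in WT, a mean of 37.1 ± 18.5 (SD, n = 3), and at 72, 64.3 and 45.4 in HET, a mean of 60.6 ± 13.7. All 6 animals at 8 h lay above all 18 others, and the genotypes overlapped. A 0 in the WT saline libraries allows up to 3 fragments, 0.589 to 0.763 FPKM for Tac1, so the lowest WT animal at 8 h was at least 30.5-fold higher than the limit of any single WT saline library. These limits cover counting error only.

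At 24 h Tac1 was at 0.716, 0.845 and 3.64 FPKM in WT and at 1.78, 2.85 and 1.87 in HET. At 48 h it was at 0.655, 0.285 and 0.252 in WT and at 0.214, 0.0953 and 0.0489 in HET. From 8 h to 48 h, both within the v2 guide, the group mean was thus 93.4-fold lower in WT and 507-fold lower in HET, the fall for which Tac1 was chosen. The 48 h values stand for about 7, 5 and 3 fragments in WT and about 5.67, 2.99 and 2 in HET. They lie at or below 0.763 FPKM, the limit of a WT saline library, so whether Tac1 at 48 h was above its resting level was not detectable at the depth of the saline libraries. In order of means Tac1 ran from HET 8 h through WT 8 h, HET 24 h, WT 24 h, WT 48 h and HET 48 h to HET saline and WT saline. Neighbours did not overlap between WT 8 h and HET 24 h, between WT 24 h and WT 48 h, and between WT 48 h and HET 48 h.

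**Figure D3:**
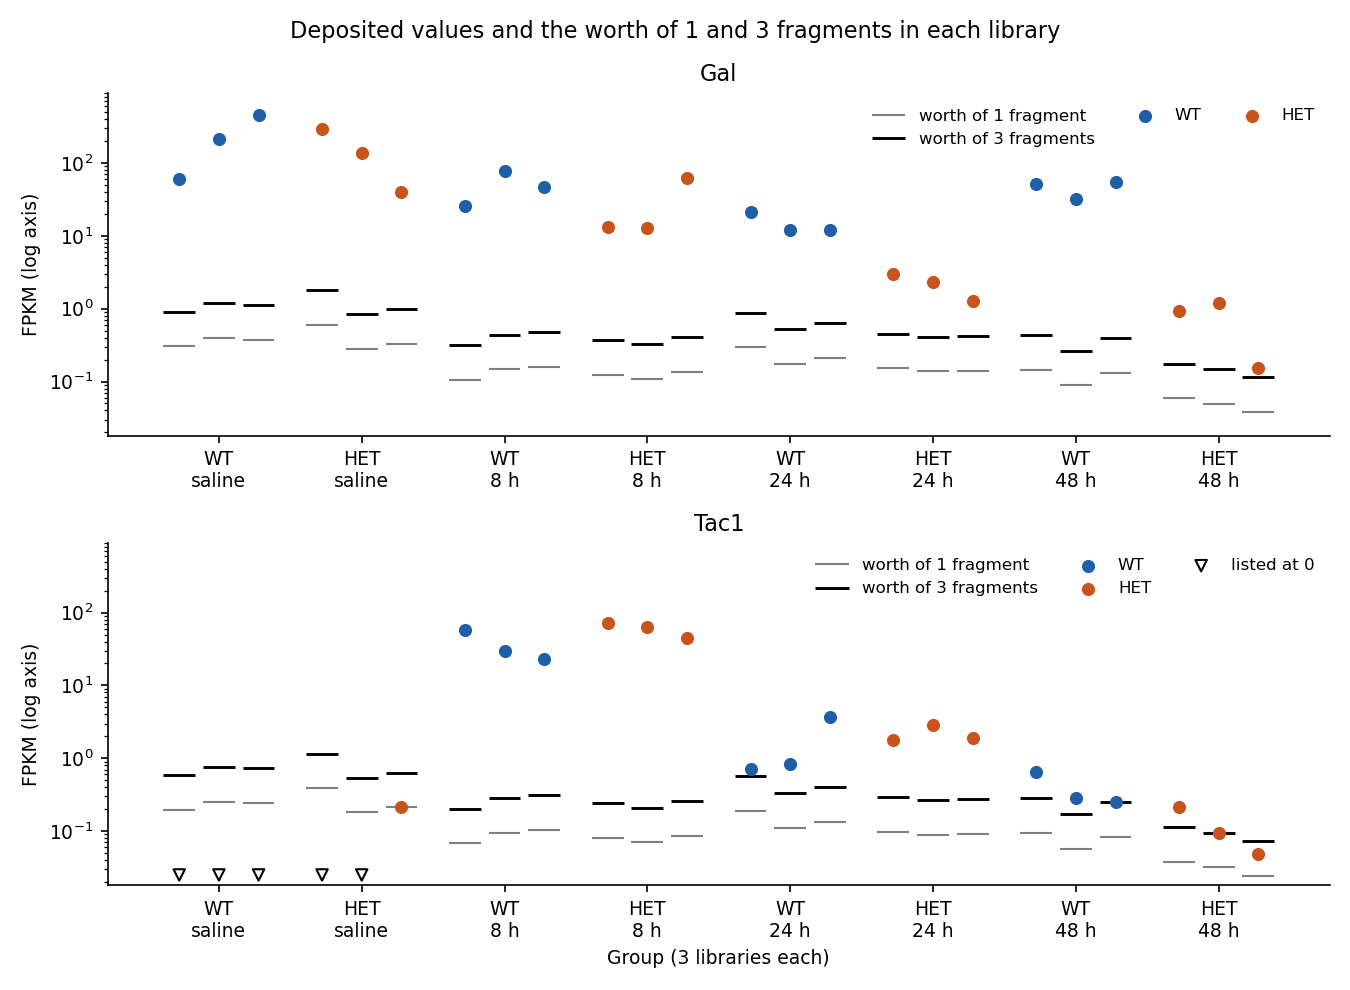
FPKM of Gal (top) and Tac1 (bottom) on a log axis in each library, with the worth of 1 fragment (grey line) and of 3 fragments (black line) in that library, and open triangles for values listed at 0. Gal of HET at 48 h is above the line of 3 fragments in every library, and Tac1 at 48 h lies between about 2 and 7 fragments.

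Within the earlier guide, Tac1 was higher at 24 h than in saline in WT (limma adjusted p = 0.00315) and in HET (adjusted p = 0.000549). No fold is given, since the saline values are 0 or 1 fragment. Tac1 reached 1 FPKM in 10 libraries, none of them saline, so it passed the filter through the caerulein groups. The zeros of WT saline enter the fit as exact values. At 24 h WT replicate 1 (0.716 FPKM, about 3.78 fragments) lies below the highest limit of a WT saline library, 0.763 FPKM. WT replicate 2 (0.845 FPKM, about 7.55 fragments) lies just above it, and only replicate 3, at 3.64 FPKM, lies well above it. All HET values at 24 h lie above the highest limit in HET saline, 1.16 FPKM. Fitted on the compared groups alone, WT was at an adjusted p of 0.0501. The genotype difference of Tac1 was 0.35 ± 0.32 at 24 h (adjusted p = 0.579), and in saline it had an adjusted p of 0.919. Leaving out 1 library moved the 24 h value between 0.10, without WT 24 h replicate 1, and 0.82, without WT 24 h replicate 3, and it passed in none of these fits. The interaction at 24 h had an adjusted p of 0.813. At 8 h HET minus WT was 0.77 and at 48 h -0.31 on the log2 scale, values from libraries used to choose the gene.

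The related ligands and the receptors were barely detected. Galp, the galanin-like peptide gene, was listed at 0 in all 24 libraries. Tac2, the neurokinin B gene, was above 0 in 3 libraries with a highest value of 0.121 FPKM, and Tac4, the hemokinin gene, in 2 with a highest value of 0.0282. Of 6 receptor genes 5 were matched in the table, and none reached 1 FPKM in any library. The highest values were 0.3 FPKM for Galr1, 0.37 for Galr2, 0.146 for Tacr1, 0.181 for the neurokinin A receptor Tacr2 and 0.0433 for the neurokinin B receptor Tacr3. Thus 2 of 5 ligand genes and 0 of 5 receptor genes were tested, and the 2 ligand genes were Gal and Tac1. Receptor mRNA in a small population of cells can lie below what these libraries show.

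Of 12 processing and granule genes 11 were tested, and Furin, a convertase of the constitutive secretory pathway, was the 1 higher at 8 h than in saline in both genotypes. In WT 6 of the 11 were lower at 8 h, and in HET 0. Of all genes 28.2% were higher and 22.8% lower there in WT, and 30.7% were higher and 24.5% lower in HET. The 8 h interaction called 0 of the 11, with 8 at an unadjusted p under 0.05, and 0.0233% of all genes. Furin was at 14.3, 21.9 and 22.3 FPKM in WT saline and at 155, 106 and 98.3 at 8 h. It rose by 2.56 ± 0.22 in WT (adjusted p = 8.97e-09) and by 3.54 ± 0.22 in HET (adjusted p = 9.07e-11). From 8 h to 48 h Furin fell by 3.44 ± 0.22 in WT and 3.54 ± 0.22 in HET (adjusted p = 2.13e-10 and 1.59e-10), in comparisons that called 50.0% and 52.0% of genes. At 24 h Furin was higher in HET than in WT by 0.93 ± 0.22 (adjusted p = 0.0148), the 1 list member that differed there. That comparison called 6.50% of all genes.

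The convertases of regulated granules were low. Pcsk2 was at 5.21, 2.83 and 6.85 FPKM in WT saline and at 1.07, 1.25 and 1.4 in HET saline, a difference of -1.35 ± 0.35 (adjusted p = 0.0479). With Scg3 (-1.54 ± 0.33, adjusted p = 0.0210) it was 1 of 2 list members lower in HET saline, in a comparison that called 2.36% of genes. Neither passed with the scaling that leaves out acinar genes or with the saline groups fitted alone. Pcsk1 was at 1.7 to 2.78 FPKM in WT saline. In HET at 24 h it was at 0.404 to 0.816 FPKM, lower than in HET saline by 0.96 ± 0.22 (adjusted p = 0.00180). In WT 8 of 11 members fell from saline to 24 h, where 18.7% of all genes fell. Chga, the granule protein chromogranin A, fell by 2.46 ± 0.55 (adjusted p = 0.00171), and Scg3, secretogranin III, fell by 1.43 ± 0.33 (adjusted p = 0.00207). In HET 1 fell, Pcsk1, where 19.8% of all genes fell. The 24 h interaction called 1 of the 11, as higher, with 6 at an unadjusted p under 0.05, and 2.31% of all genes. With libraries scaled to the total without acinar secretory and Reg genes, 1 fell from saline to 24 h in WT and 0 in HET, and 1 and 3 rose. The counts within each genotype and their direction thus rest on the scaling, under which 478 of all genes fell in WT and 639 in HET from saline to 24 h. Islet markers moved in the same comparison, as given above.

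Among peptidases that cleave neuropeptides 9 of 10 were tested. Prep, the cytosolic prolyl endopeptidase that cuts substance P in vitro, was at 4.56 to 5.75 FPKM in the saline group of WT and at 4.2 to 5.4 in that of HET. At 8 h it was at 26 to 30.3 in WT and at 27.6 to 30.8 in HET. It rose by 2.25 ± 0.11 in WT (adjusted p = 4.89e-12) and by 2.4 ± 0.11 in HET (adjusted p = 2.03e-12). At 48 h Prep was at 5.88 to 6.44 FPKM in WT and at 6.95 to 7.85 in HET, above the saline range of each genotype. Anpep, aminopeptidase N, fell by 2.24 ± 0.30 in WT (adjusted p = 4.20e-06) and by 1.65 ± 0.30 in HET (adjusted p = 0.000120) in the same comparison. In all 3 rose and 2 fell in WT at 8 h, and 2 rose and 2 fell in HET, shares near the 51.0% and 55.2% of all genes called. At 24 h Anpep was lower in HET than in WT by 1.88 ± 0.30 (adjusted p = 0.00135) and Prep higher by 0.45 ± 0.11 (adjusted p = 0.0201). These were the 2 list members that differed, where 6.50% of all genes were called. With the scaling that leaves out acinar genes, or with the 24 h groups fitted alone, 1 list member was lower and 0 were higher. Mme, neprilysin, the main surface enzyme that inactivates substance P, was not tested. It was at 0.0367 to 0.132 FPKM in WT and 0.0844 to 0.312 in HET at 8 h, when Tac1 was highest.

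Of 19 other neuropeptide genes 5 were tested and 12 stayed under 1 FPKM in all libraries. Calca, which encodes calcitonin and CGRP, the peptide stored with substance P in sensory nerves, was at 1.48, 1.87 and 2.18 FPKM in WT at 8 h and at 1.51, 1.94 and 2.43 in HET. It rose from saline by 1.25 ± 0.27 in WT (adjusted p = 0.000572) and by 0.91 ± 0.27 in HET (adjusted p = 0.00659), to levels far below those of Tac1. Npy, neuropeptide Y, was listed at 0 in HET saline and at 2.77, 2.41 and 1.69 at 8 h, a rise (adjusted p = 0.000134) for which no fold is given. Penk, proenkephalin, fell at 8 h in HET by 1.19 ± 0.36 (adjusted p = 0.00929). In the limma genotype differences 0 of the 5 passed in any condition, with 1, 0, 1 and 1 at an unadjusted p under 0.05 in saline and at 8, 24 and 48 h. Of all genes 2.36%, 0.218%, 6.50% and 12.2% passed there.

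Markers of nerves were low throughout. All 7 sensory neuron markers stayed under 1 FPKM in all 24 libraries, with Trpa1, an irritant channel, at 0 in each. Their summed level was 0.0472 to 0.486 FPKM in WT at 8 h and 0.0599 to 0.504 in HET at 8 h, against 0.0798 to 0.241 in WT saline and 0.142 to 0.599 in HET saline. The sums at 8 h overlapped those in saline. Sensory endings in the pancreas have their cell bodies in ganglia outside it, so low marker mRNA does not measure how much nerve was present. Of 16 general neuron markers 11 stayed under 1 FPKM everywhere, and 4 were tested. The summed level of the 16 was 6.50 to 8.46 FPKM in WT at 8 h, above the 2.65 to 4.81 of WT saline, and 7.06 to 9.70 in HET at 8 h, above the 3.86 to 5.06 of HET saline. At 8 h 2 of the 4 rose and 1 fell in each genotype, where 51.0% of all genes were called in WT and 55.2% in HET. Tubb3, a tubulin, rose at 8 h by 1.60 ± 0.22 in WT (adjusted p = 5.52e-06) and by 1.47 ± 0.22 in HET (adjusted p = 1.42e-05), and Uchl1, a ubiquitin hydrolase, by 1.44 ± 0.31 and 1.39 ± 0.31 (adjusted p = 0.000642 and 0.000835). The member that fell was Stmn2, a stathmin, in WT (-0.45 ± 0.16, adjusted p = 0.0278) and Gfra2, the neurturin receptor, in HET (-0.64 ± 0.18, adjusted p = 0.00617). With the scaling that leaves out acinar genes 2 rose and 0 fell in each. In the limma genotype differences 0 of the 4 tested neuron markers passed at 8, 24 or 48 h, with 0, 1 and 0 at an unadjusted p under 0.05. Of all genes 0.218%, 6.50% and 12.2% passed there. In saline Gfra2 was higher in HET by 0.83 ± 0.18 (adjusted p = 0.0234), and its 24 h interaction was -1.26 ± 0.26 (adjusted p = 0.0155). Neither call held with the scaling that leaves out acinar genes or in the fit on the compared groups alone.

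The summed Schwann cell and glia markers were at 17.7 to 21.7 FPKM in WT at 8 h, above the 9.78 to 11.9 of WT saline, and at 15.7 to 19.9 in HET at 8 h, above the 6.33 to 8.88 of HET saline. Of these 9 markers 6 stayed under 1 FPKM, Sox10 among them, and Erbb3, also expressed in epithelium, rose at 8 h by 1.86 ± 0.18 in WT (adjusted p = 6.07e-08). Of 12 gut markers Cdx1, Cdx2 and Apoa4 were at 0 in all libraries, and the sum of the list was at most 6.09 FPKM at 8 h. Of the acinar markers 9 of 14 fell at 8 h in WT and 10 of 15 in HET, where 22.8% and 24.5% of all genes fell, and Cckar fell by 5.33 ± 0.40 in WT (adjusted p = 1.45e-09). Of 7 tested duct markers 2 rose and 2 fell at 8 h in WT, and 4 rose and 2 fell in HET. Of all genes 51.0% were called there in WT and 55.2% in HET. The part of nerve or epithelial cells in the Tac1 result was not tested.

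Of 10 genes for signals that sensitise sensory nerves 7 were tested, and the other 3 stayed under 1 FPKM in all libraries. Lif, a cytokine of the IL-6 family, was at 46.9, 28.4 and 14.1 FPKM in WT and at 37.2, 24.9 and 22.2 in HET at 8 h, and in saline it was at most 0.168. It rose by 4.72 ± 0.35 in WT (adjusted p = 1.39e-09) and by 4.70 ± 0.35 in HET (adjusted p = 1.33e-09). In WT 1 of 7 rose and 1 fell at 8 h, and in HET 5 rose and 1 fell, where 51.0% and 55.2% of all genes were called. With the scaling that leaves out acinar genes 3 rose and 0 fell in HET. The 8 h interaction called 0 of the 7, with 3 at an unadjusted p under 0.05, and 0.0233% of all genes. Nrtn, neurturin, fell from saline to 8 h in both genotypes, by 0.85 ± 0.22 in WT (adjusted p = 0.00330) and by 0.78 ± 0.22 in HET (adjusted p = 0.00573). Il6 at 8 h was at 0.662, 1.59 and 0.0913 FPKM in WT and at 5.13, 3.72 and 5.55 in HET, a genotype difference of 1.78 ± 0.28 (adjusted p = 0.00780). It was the 1 list member that differed, where 0.218% of all genes were called. With the 8 h groups fitted alone 0 of the 7 passed, in a fit that called 4 genes. Tac1 overlapped between the genotypes in these same libraries.

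The genes with the most similar pattern were sought among 11624 others by Pearson's r of log2(FPKM + 1) over the 24 libraries. These correlations describe libraries that share time, guide and genotype, and the levels used to choose the members are among them. For Gal they were Dusp26, a phosphatase (r = 0.948), Edem1, which acts in disposal of misfolded proteins in the endoplasmic reticulum (0.946), Fbxo31, a subunit of a ubiquitin ligase (0.942), Pbld2 (0.937), Prom2, a membrane protein of epithelia (0.93), and Hgfac, a protease that activates hepatocyte growth factor (0.928). Over the 8 group means 1 of these 6, Edem1, was again among the first 6, and by Spearman's rho over the libraries 2 were, Fbxo31 and Prom2. Dusp26 had group means of 19.5 FPKM in WT and 2.64 in HET at 48 h. Of the 13 acinar markers compared r with Gal ran from 0.339 to 0.912 with a median of 0.875, and of 11 islet markers from 0.317 to 0.838 with a median of 0.504.

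For Tac1 the first 6 were Itpkc, an inositol trisphosphate kinase (r = 0.98), Kel, a membrane endopeptidase (0.979), Taf4b, a subunit of the general transcription machinery (0.978), Dstn, an actin-severing protein (0.977), Gclc, the catalytic subunit of the rate-limiting enzyme of glutathione synthesis (0.976), and Ipo5, a nuclear import receptor (0.975). Kel had WT group means of 0.34 FPKM in saline, 226 at 8 h and 0.488 at 48 h, a course like that of Tac1. Over the 8 group means 1 of the 6, Ipo5, was again among the first 6, and by Spearman's rho over the libraries 0 were. Of the 4 neuron markers compared r with Tac1 ran from -0.522 to 0.804 with a median of 0.16. Of the 13 acinar markers it ran from -0.876 to 0.222 with a median of 5.37e-05. Of the 7 duct markers compared it ran from -0.675 to 0.854, with a median of 0.444. The 2 Schwann cell and glia markers compared were at 0.54 and 0.906.

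**Figure D4:**
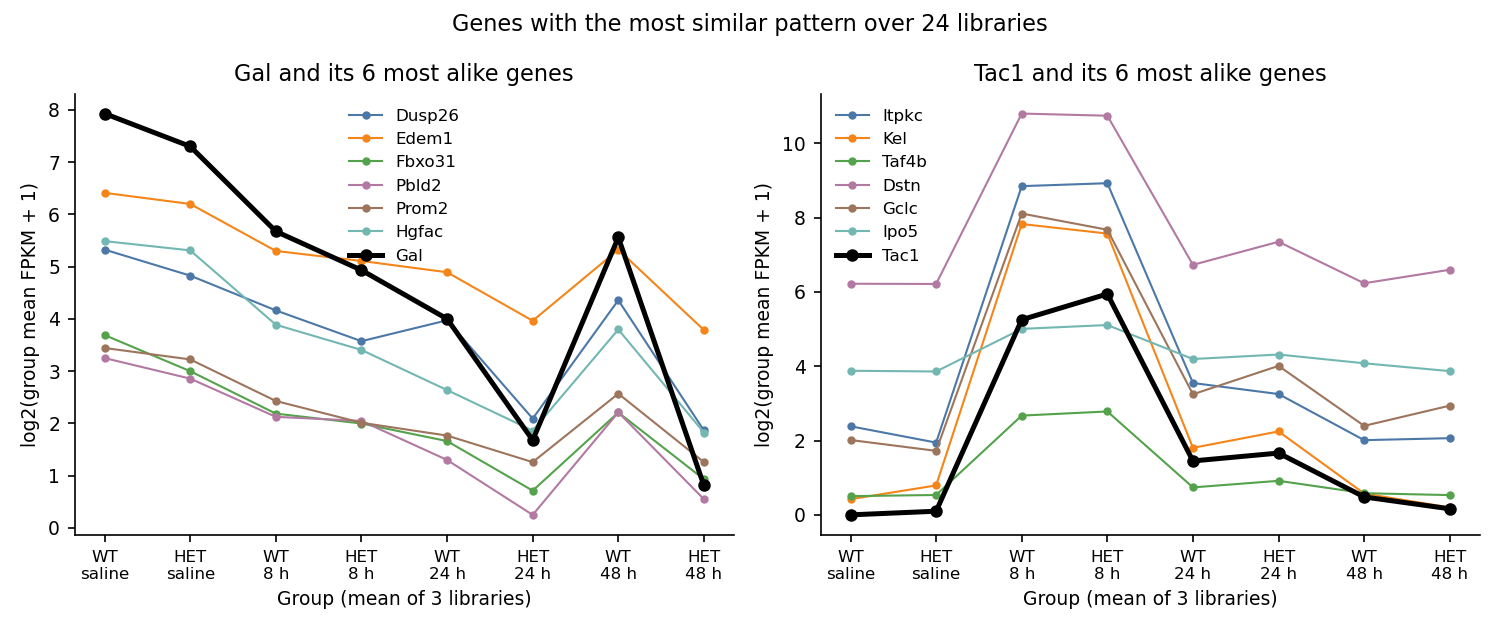
Group means, as log2(mean FPKM + 1), of Gal (left) and Tac1 (right) in black with the 6 genes of most similar pattern in colour, over 8 groups of 3 libraries. The genes beside Gal are low in HET at 24 h and 48 h, and those beside Tac1 peak at 8 h in both genotypes.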

How the data were processed

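The deposited table holds 1 row per Ensembl gene, read here as FPKM. Its header names no unit, and the reading rests on Cuffnorm, listed in the submitters' processing notes beside CASAVA 1.8, Bowtie, Cufflinks 2.0.2 and mouse build mm9. How these tools were set, and how Cuffnorm scaled the libraries, is not stated. Reads were not analysed here. Per the labels' protocols, RNA integrity numbers were 6.6 to 9.2, and saline and 24 h libraries had 10 PCR cycles, 8 h and 48 h libraries 8.

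All 24 columns matched a sample title. Of 36806 genes 12784 were at 0 throughout. Replicates were numbered in accession order. Pairs of libraries within a group had r of 0.9359 to 0.9699 and shared at most 0.683% of values. FPKM summed to 217205 to 1400108 per library.

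The 12871 genes that reached 1 FPKM in 3 or more libraries were tested on log2(FPKM + 1) with limma 3.58.1 in R 4.3.3 (1 mean per group, 16 residual degrees of freedom, trend and robust moderation, two-sided, Benjamini-Hochberg over all genes, threshold 0.05). A group at 0 in every library was taken as missing where another group had at least 100 FPKM in each, 68 combinations in 22 genes, none of them Gal or Tac1. The fit was tested on simulated data with 1 spread per gene for all groups. It recovered 65.7% to 68.7% of 2-fold and 92.8% to 94.9% of 4-fold changes. This does not cover a gene whose spread differs between groups, as that of Gal did. The worth of 1 fragment was taken from the most frequent ratio of low values between libraries and, for each member, from its 5 lowest values. Promoters and symbols came from RefSeq tables of GRCm38, so no coordinate was joined to the mm9 table.

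Members, lists and tests were chosen with earlier results of these data known. Named are Gal, Tac1, Nr5a2, the ligand and receptor genes, up to 4 members per list and comparison with the smallest adjusted p (otherwise up to 2 as values) and the 6 most similar genes. Mme, Sox10, Trpa1, Cdx1, Cdx2 and Apoa4 were named as low or undetected markers after their values were seen. Plots used Python 3.11.15 with matplotlib 3.10.9.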

Additional observations from a re-analysis of the deposited data

Results flagged for a closer look

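Gal moved in opposite directions between 24 h and 48 h in the genotypes. In WT all 48 h libraries (32.5 to 54.1 FPKM) lay above all 24 h libraries (11.9 to 21), and in HET all 48 h libraries (0.151 to 1.18) lay below all 24 h libraries (1.26 to 3.01). The HET ranges were close, with 1.18 FPKM the highest at 48 h and 1.26 the lowest at 24 h. The change in HET minus that in WT was -2.45 on the log2(FPKM + 1) scale. This difference was not tested, since Gal was chosen for its 48 h values, and the 24 h and 48 h libraries also differ in guide.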

How the results depend on the processing

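The alternatives were a pseudocount of 0.1, no filter on low values, a filter of 6 libraries, 2 other scalings, zeros kept as values, a fit on the compared groups alone and leaving out each library. Each count is of genes called by limma. Scaled to the total without acinar secretory and Reg genes, the genotype differences called 10 genes in saline (303 before), 9 at 8 h (28), 546 at 24 h (836, now 372 higher and 174 lower) and 3445 at 48 h (1572, now 3117 higher and 328 lower). Under this scaling 24 h against saline called 8025 in WT (5037, now 7547 higher) and 8866 in HET (5626, now 8227 higher). The interactions called 48 at 24 h (297) and 8 for 8 to 48 h (93), and Tac1 of HET from 8 h to 48 h was -5.41. Fitted on the compared groups alone, the genotype differences called 1, 4, 256 and 19 genes, WT 24 h against saline 3204, and the interactions 101 at 24 h and 6 for 8 to 48 h. In that fit Gal was past the threshold at 24 h between genotypes (-2.32) and missed it from saline to 8 h (-1.97 in WT, -2.36 in HET), and Tac1 of WT at 24 h against saline was at a limma adjusted p of 0.0501. With a pseudocount of 0.1 the 8 h difference called 5 genes and the 8 to 48 h interaction 48. Gal at 48 h was then -6.03 between genotypes, and Tac1 from 8 h to 48 h -6.20 in WT and -8.16 in HET. A filter of 6 libraries called 13 at 8 h. For the 8 h interaction (3) the counts were 1 with the pseudocount of 0.1, 6 with no filter, 10 with zeros kept, and 0 with the filter of 6 libraries, where 1116 had an unadjusted p under 0.05.

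Leaving out 1 library, the genotype difference called between 117 and 437 genes in saline, between 5 and 27 at 8 h, between 309 and 799 at 24 h, and between 478 and 2256 at 48 h. The interactions ranged over 130 to 620 (24 h), 2 to 16 (8 h) and 13 to 368 (8 to 48 h). Gal ranged over -1.40 to 0.14 in saline, positive without WT saline replicate 3 (0.04) or HET saline replicate 3 (0.14). Between genotypes at 8 h it ranged over -1.73 (without HET 8 h replicate 3) to -0.62 (without WT 8 h replicate 2). Its 24 h interaction ranged over -2.46 (without HET saline replicate 3) to -0.92 (without WT saline replicate 1). Its 8 h interaction ranged over -1.14 to 0.39, positive without WT saline replicate 1 (0.39) or HET saline replicate 1 (0.27). From saline to 8 h Gal ranged over -2.75 to -1.31 in WT and -3.12 to -1.70 in HET. The 8 h calls were lost without WT saline replicate 2 or 3, WT 8 h replicate 1 or 3, HET saline replicate 1, or HET 8 h replicate 1 or 2. The Tac1 genotype difference in saline was at an adjusted p of 0.871 to 1, the latter without HET saline replicate 3. The tested changes of both genes from saline to 24 h kept their calls without any 1 library. No paired analysis was possible because the replicate numbers were given in accession order and pair no animals. The depth of the saline libraries limits how low a resting level of Tac1 can be seen.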
